A study of Ciona robusta with 3 samples.

Results

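The cells described here were assigned to 9 or 10 hours post-fertilization (hpf) and held at least 5 unique molecular identifiers (UMIs, counted transcripts) in the sum of Aldh1a1 (KY.Chr4.295), Acer2 (KY.Chr2.452) and Sapcd2 (KY.Chr9.328). Of 518 cells assigned to these time points, 481 passed this gate (92.9%, 95% exact Clopper-Pearson interval 90.3 to 94.9%). At 9 hpf, 56 of 58 cells passed (96.6%, 88.1 to 99.6%), and at 10 hpf 425 of 460 passed (92.4%, 89.6 to 94.6%). The gate thus took in nearly every barcoded cell of both time points, in muscle-like and progenitor-like clusters alike, and it did not single out a cell type. The 481 cells are therefore called members, the 37 cells below the gate are called others, and the 3 genes are called gate genes. The members were thus chosen by their UMI counts of the gate genes. The levels of these genes in members and others are therefore a description and support no result. The same holds for their levels, ratios and correlations within the members.

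The cells came from embryos of the tunicate Ciona robusta, in 1 droplet library (10x Genomics) of 2569 cell barcodes that pooled 10 time points from 5 to 14 hpf. Each time point had been electroporated with its own pair of barcoded Mesp > GFP reporters, and the pooled, methanol-fixed cells were sorted with an anti-GFP antibody. Mesp drives expression in the B7.5 lineage, and electroporated transgenes are inherited by only some of the cells. Members and others thus share the sort and the library, and carry no CRISPR reagents. Whether others with only a few barcode UMIs carry the reporter was not tested. The barcode pairs of 9 and 10 hpf correlated at 0.987 and 0.988 across cells. The time point of a pair was taken from colours in an appendix figure, so that all values by time point depend on the colours having been read correctly. Each time point is 1 batch of embryos without replicates, so no test was made, and all intervals given are 95% intervals for counting error alone.

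In Ciona, each B7.5 founder cell divides into an anterior tail muscle (ATM) cell, which stays in the tail, and a trunk ventral cell (TVC), a cardiopharyngeal progenitor that migrates into the trunk and later gives rise to heart and pharyngeal muscle. Foxf, Gata4/5/6, Hand and Nkx4 are transcription factors of the TVCs, and differentiating tail muscle makes the proteins of the sarcomere and of calcium release. Among vertebrate genes, Aldh1a1 encodes a retinaldehyde dehydrogenase that makes retinoic acid, Acer2 a ceramidase that acts on the sphingolipid ceramide, and Sapcd2 a protein that takes part in spindle orientation. Gene names here are those of matching genes in other species, each with its KY2019 identifier.

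Aldh1a1 (KY.Chr4.295) carried most of the gate in the members. At 9 hpf the members held 0 to 99 Aldh1a1 UMIs with a median of 49.5, and at 10 hpf 0 to 154 with a median of 30. For Acer2 (KY.Chr2.452), the range was 0 to 77 with a median of 5 at 9 hpf, and 0 to 54 with a median of 3 at 10 hpf. Acer2 was thus the most uneven gate gene, since many members held none. For Sapcd2 (KY.Chr9.328), the range was 0 to 17 with a median of 5.5 at 9 hpf, and 0 to 31 with a median of 7 at 10 hpf. A UMI of Aldh1a1 was present in 479 members, of Sapcd2 in 468 and of Acer2 in 349, and 341 members held all 3. With Aldh1a1 alone, 472 members would have passed the gate, against 325 with Sapcd2 alone and 227 with Acer2 alone.

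**Figure D1:**
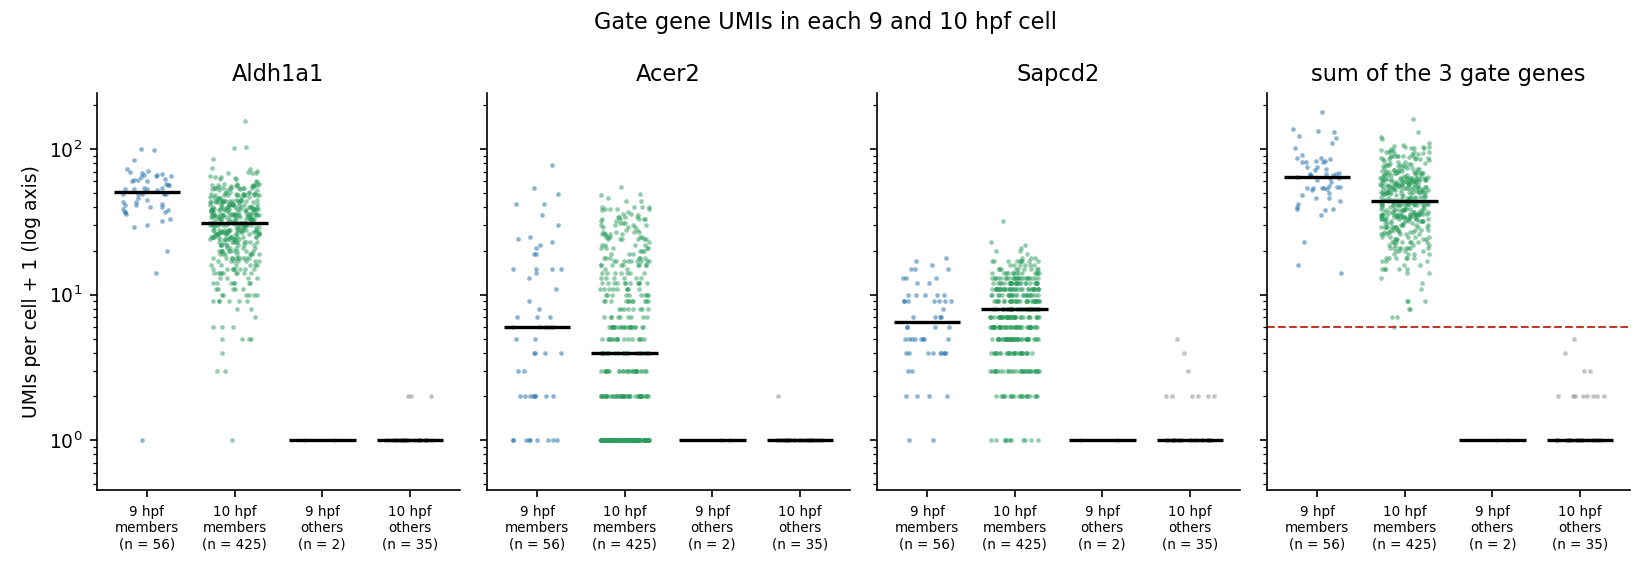
UMIs plus 1 of each gate gene and of their sum (log axis) in every 9 and 10 hpf cell, with members and others apart; each point is a cell, the black line is the median and the dashed red line marks the gate of 5 UMIs. The sum runs from 13 to 180 in 9 hpf members and from 5 to 159 in 10 hpf members, and stays at or below 4 in the others.

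The gate lay in a sparsely filled range of the sum. The sum of the 3 genes had a median of 63.5 UMIs (13 to 180) in the 9 hpf members and 43 (5 to 159) in the 10 hpf members, and 377 members held 30 or more. Just below the gate, 1 cell of 10 hpf held 3 UMIs and 1 held 4. Just above it, 1 cell held 5, 2 held 6, 2 held 7 and 3 held 8. Among the others, 25 cells held no gate UMI, including both cells of 9 hpf.

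Most of the others lay outside the clusters of barcoded cells. Of the 37, 27 lay in clusters in which under 50% of the cells could be assigned to a time point (12 of 22 clusters), against 18 of the 481 members. These 27 cells rested on a median of 2 barcode UMIs, and the members on a median of 561. The sparsely barcoded others held 0.138 to 27.5% of their UMIs in 62 muscle genes, with a median of 0.305%. The 10 others in well barcoded clusters ran from 0.445 to 61.5%, with a median of 17.1%. Only 5 of the 37 others supplied 95.6% of all muscle UMIs of that group, so summed muscle values of the others describe a few cells.

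Markers of other embryonic tissues moved with this split. The list holds 12 genes, among them the epidermal gene Epi1 (KY.Chr1.2380), and its summed level is in CPM, the UMI count scaled to 1000000 UMIs of the cell. The sparsely barcoded others had a median of 9480 CPM (0 to 44118), against 180 CPM (0 to 4866) in the other 10. In the 463 members of well barcoded clusters the median was 65.1 CPM (0 to 4786), with all 12 genes above 0 over the sum, and in the 18 members of sparsely barcoded clusters it was 4639 CPM (127 to 16210). In the others, 8 of the 12 genes were above 0, and Akr1c1 (KY.Chr1.2267), Twist1 (KY.Chr5.357), Bhlha15 (KY.Chr3.1309) and KY.Chr14.191 were at 0. The comparison of members with others is therefore given over all cells and, for the muscle and progenitor lists, within well barcoded clusters.

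Members were also deeper than the others. Their total, without barcodes and gate genes, had a median of 14085 UMIs per cell (2264 to 47451), against 7722 (679 to 39613) in the others. After each cell was thinned to 5000 UMIs, the number of genes per cell no longer separated the groups, with medians of 1836 genes in 476 members and 1842 in 27 others. Scrublet, a doublet caller, marked 15 members and 0 others, and 10 of the 15 lay in sparsely barcoded clusters.

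In the sums over all cells, muscle genes were higher in the members than in the others, but not within well barcoded clusters. UMIs were summed over the members and over the others, and a gene was called higher at a CPM ratio over 2 and lower at a ratio under 0.5. Among 7486 genes with at least 50 UMIs over both sums, 798 were called higher (10.7%) and 1398 lower (18.7%), and the median log2 ratio was -0.19. Of the 62 muscle genes, 54 were higher and 2 lower, with a median log2 ratio of 1.54. At 10 hpf alone, where 852 of 7281 genes were higher (11.7%) and 1279 lower (17.6%), the muscle counts were again 54 and 2. At 9 hpf alone, with only 2 others, 201 of 2557 genes were higher (7.86%) and 847 lower (33.1%), and 491 were known only as a bound. Of 55 muscle genes there, 43 were higher and 2 lower, with 27 at a bound. Within well barcoded clusters (463 members against 10 others, chosen after seeing the data), the muscle median was -0.12 beside -0.24 over all 7056 genes. There, 28 of the 56 muscle genes called over all cells changed sign, and a bound left 1 undetermined. These 10 others were 7 ATM-like, 3 founder-like and 0 TVC-like cells by the clusters named below, while 206 members were TVC-like. Only 5 of the 10 supplied 99.1% of their muscle UMIs. The values within well barcoded clusters thus rest on a few cells and compare groups of unlike make-up.

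The sarcomere list gave 34 of 37 genes higher and 1 lower, with a median log2 ratio of 1.58. Tpm1 (KY.Chr3.1094), the actin filament protein tropomyosin, stood at 23122 CPM in members and 5408 CPM in others (ratio 4.3, 4.1 to 4.5). Its per-cell range was 0 to 881 UMIs in the others with a median of 1, so that few cells made up their level. The giant sarcomere protein Ttn (KY.Chr9.1127) reached 5493 CPM in members and 1534 CPM in others (3.58, 3.31 to 3.88). The exception was Myh7b (KY.Chr11.44), a myosin heavy chain, at 86.0 and 186 CPM (0.462, 0.365 to 0.593). Several sarcomere genes, such as the 8 actins matched to Actg2, are close copies among which reads can be split, and their single values are uncertain.

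Among genes of muscle calcium and excitation, 13 of 16 were higher and 0 lower (median log2 ratio 1.65). The acetylcholine receptor subunit Chrna1 (KY.Chr7.710) was at 751 CPM in members and 67.7 CPM in others (11, 7.7 to 17). It was detected in 8.11% of the others, with 0 to 21 UMIs per cell. The calcium store protein Casq2 (KY.Chr4.1004) stood at 9986 and 3071 CPM (3.25, 3.08 to 3.44). Of the muscle regulators and chaperones, 7 of 9 were higher and 1 lower (median 1.44). The myogenic factor Myf5 (KY.Chr14.1058) was at 176 CPM in members and 26.6 CPM in others (6.6, 3.7 to 13). The lower gene was Mef2a (KY.Chr10.19), also a muscle transcription factor, at 24.9 and 50.7 CPM (0.491, 0.312 to 0.811).

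**Figure D2:**
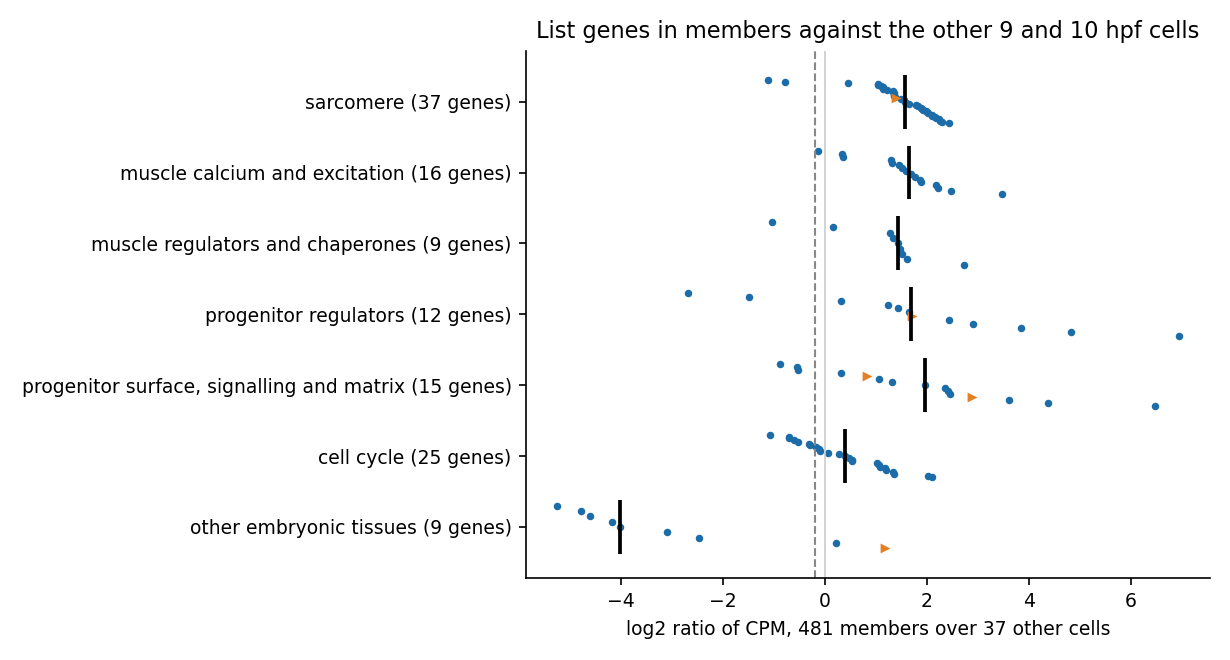
Log2 ratio of CPM, 481 members over 37 others, for each gene of 7 lists; each blue point is a gene, an orange triangle is a lower bound against others at 0 UMIs, the black bar is the list's median and the dashed line the median over all 7486 genes (-0.19). The 3 muscle lists and the 2 progenitor lists have medians between 1.44 and 1.97, and the markers of other tissues have a median of -4.02.

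Progenitor genes were higher in the members as well. Of the 37 others, 0 lay in a TVC-like cluster, against 206 of the 481 members (clusters are described below). The others in named clusters were 7 ATM-like and 3 founder-like cells. Ratios of progenitor genes thus compare members that include TVC-like cells with others that include none. Of 27 progenitor genes, 19 were higher and 2 lower, with a median log2 ratio of 1.72 (3 genes entered at a lower bound). Within well barcoded clusters the median was 2.25, with 16 of the 27 genes at a lower bound. Among the regulators, 9 of 12 were higher and 2 lower (median 1.69). Hand2 (KY.Chr1.2070), a basic helix-loop-helix factor of heart progenitors, was at 892 CPM in members against 7.25 CPM from 3 UMIs in the others (ratio 123, 42.1 to 597). Gata5 (KY.Chr6.625), the Gata4/5/6 match, was at 69.5 against 4.83 CPM from 2 UMIs (14, 4.0 to 119). Foxf1 (KY.Chr3.1005), the Foxf match, was at 259 against 82.2 CPM (3.15, 2.25 to 4.56). The genes lower in members were both Id2 matches, inhibitors of basic helix-loop-helix factors, with Id2 (KY.Chr7.1157) at 206 and 1329 CPM (0.155, 0.141 to 0.171).

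Genes of the progenitor surface, signalling and matrix list were higher in 10 of 15 cases and lower in none (median 1.97). Asb2 (KY.Chr7.1211), a ubiquitin ligase subunit in vertebrates, was at 860 CPM in members and 9.67 CPM in others (89.0, 34.7 to 327). The collagen receptor Ddr2 (KY.Chr9.1025) stood at 200 and 38.7 CPM (5.17, 3.17 to 9.06). The glycogen enzyme Gbe1 (KY.Chr3.444) was at 53.4 CPM in members and at 0 UMIs in others, which is at least 7.37-fold higher with the others set to 3 UMIs in all. Bmp2 (KY.Chr4.449), a growth factor, did not pass the call, at 49.9 and 91.8 CPM (0.544, 0.389 to 0.780).

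The remaining lists were mixed. Of 25 cell cycle genes, 9 were higher and 1 lower (median log2 ratio 0.40), with the S-phase genes E2f3 (KY.Chr2.1579) and Cdc45 (KY.Chr3.1632) at ratios of 4.32 (2.18 to 10.0) and 4.05 (2.04 to 9.43). Of 9 founder genes, 3 were higher and 4 lower (-0.92). At 10 hpf alone, 3 of 6 were higher and 2 lower (0.66), so that the founder median has no stable sign. Of 8 other retinoid genes, 2 were higher and 2 lower (0.58). The lower ones were Rgr (KY.Chr12.155) and Rlbp1 (KY.Chr11.799), which handle retinaldehyde in the vertebrate eye, and Rgr was at 10.7 CPM in members and 696 CPM in others. In the others, 135 of 288 Rgr UMIs and 39 of 84 Rlbp1 UMIs lay in 1 cell each. Both are among the leading genes of a sparsely barcoded cluster that holds 6 of the others. Of 14 other sphingolipid genes, 2 were higher and 3 lower (-0.58), and the second Acer2 match (KY.Chr12.326) was at 150 and 60.4 CPM (2.48, 1.67 to 3.84). The markers of other tissues were lower in 7 of 9 cases (-4.02), with Epi1 (KY.Chr1.2380) at 215 CPM in members and 5886 CPM in others. Twist1 (KY.Chr5.357), a mesenchyme factor and the one higher gene, was at 129 UMIs in members, 72 of them in 1 cell.

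Outside the lists, the highest ratios were those of Trabd2b (KY.Chr5.930), whose vertebrate match cleaves Wnt proteins, at 491 CPM in members and 9.67 CPM in others, and of KY.Chr8.291, at least 36.9-fold higher. The gap junction gene Gjc1 (KY.Chr11.1238) was at least 35.0-fold higher. Trabd2b leads the TVC-like cluster described next, and Gjc1 is among the leading genes of the larger ATM-like cluster, so that genes of both clusters stood out. The lowest ratios were those of KY.Chr14.285 (6.64 and 437 CPM) and KY.Chr8.1394 (4.98 and 234 CPM), and the cell adhesion gene Ncam1 (KY.Chr12.342) was at 29.0 and 860 CPM. Gene clusters 5 and 6, which had been built on these same libraries and are no independent evidence, had 87 of 786 genes higher and 121 lower (median -0.15), and 222 of 612 higher and 55 lower (0.55).

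With at least 10 UMIs in the barcode pair (479 members, 10 others), the muscle median was 1.01. Of the called genes, 5 of 56 muscle and 0 of 21 progenitor genes changed sign there, and a bound left the sign of 1 muscle and 2 progenitor genes undetermined. Within well barcoded clusters, 2 of the 21 called progenitor genes changed sign and 3 were undetermined. No class held at least 20 members and 20 others, so members were not compared with others inside a class.

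The members themselves fell into muscle-like, progenitor-like and intermediate cells. Clusters were built without the gate genes and named from 10 ATM, 10 TVC and 5 founder markers. This placed 250 members (52.0%) in ATM-like clusters, 206 (42.8%) in TVC-like clusters, 1 in a founder-like cluster and 24 in unnamed ones. The TVC-like cluster held 201 members of 10 hpf and had all 10 TVC and 2 ATM markers. The larger ATM-like cluster held 122 members of 10 hpf and had 10 ATM markers and 0 TVC markers, and the smaller one held 17 members of 9 hpf and 12 of 10 hpf. A further cluster, with 30 members of 9 hpf and 65 of 10 hpf, had 7 ATM, 2 TVC and 1 founder marker. By the marker count it is ATM-like, and it is called the H2bc11 cluster here after its first leading gene, the histone H2bc11 (KY.UAContig3.154). Its leading genes also include the histone H3c2 (KY.UAContig44.13), Tpm1 (KY.Chr3.1094), Acer2 and Aldh1a1. At a coarser clustering (resolution 0.5) the ATM-like share of the members was 33.1%.

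Muscle genes took a large share of the UMIs in each of the clusters described above. The share in the 62 muscle genes had a median of 53.5% (29.4 to 62.5%) in the larger ATM-like cluster and 48.3% (34.1 to 54.0%) in the smaller one. In the H2bc11 cluster it was 27.4% (19.9 to 45.9%) at 9 hpf and 31.8% (4.46 to 52.2%) at 10 hpf. In the TVC-like cluster it was 18.4% (8.12 to 32.9%). The TVC-like and larger ATM-like ranges thus met only at their edges. For comparison, cells of sparsely barcoded clusters without an accepted pair and outside the gate held 3908 CPM of muscle UMIs over 1014 cells, far below the TVC-like cells of the same library.

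The share in the 27 progenitor genes ran the other way. It had a median of 1.98% (1.2 to 3.0%) in the TVC-like cluster and 0.0664% (0 to 0.420%) in the larger ATM-like cluster, without overlap. The H2bc11 cluster lay between them, at 0.655% (0.107 to 1.42%) at 9 hpf and 0.635% (0.0324 to 1.96%) at 10 hpf. Across the 425 members of 10 hpf, Spearman's rho between both shares was -0.845, where shares of 1 cell are bound to a common total. Total UMIs went with muscle share (0.609), since ATM-like cells were deeper (median 22751 UMIs against 12108 in the TVC-like cluster). These correlations describe cells of 1 library.

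**Figure D3:**
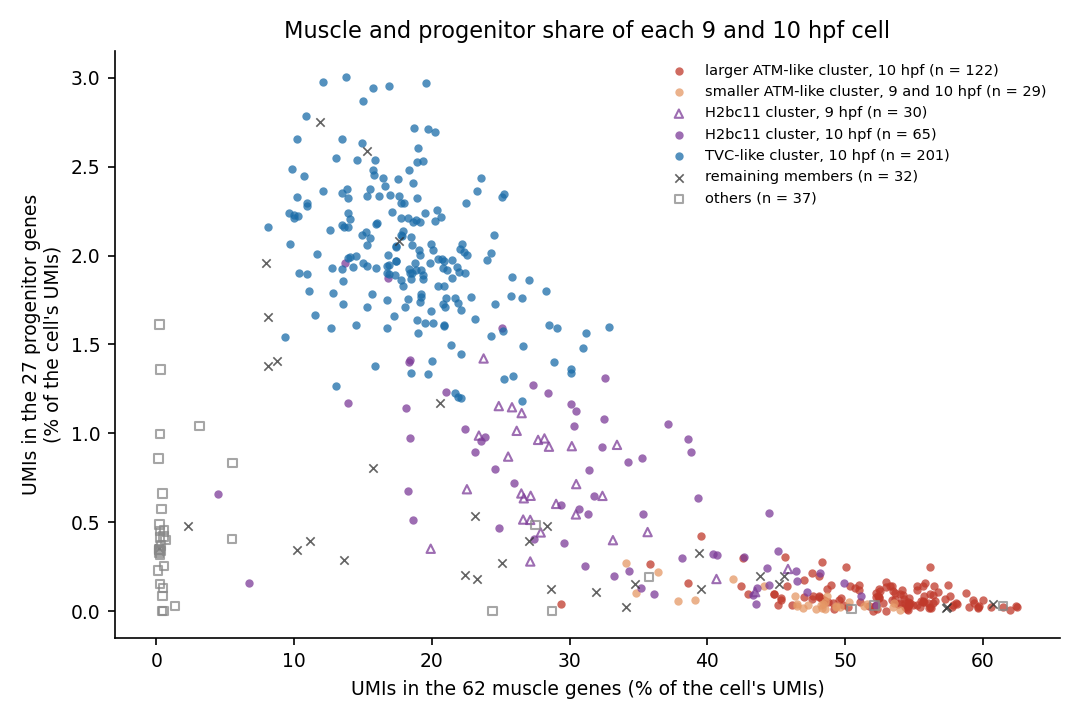
Share of UMIs in the 62 muscle genes (x, % of the cell's UMIs) and in the 27 progenitor genes (y, %) for each 9 and 10 hpf cell, coloured by member cluster, with crosses for the remaining members and grey squares for the others. TVC-like cells lie at the upper left (median 18.4% muscle, 1.98% progenitor), the larger ATM-like cluster at the lower right (53.5%, 0.0664%), and the H2bc11 cluster between them.

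Many members held UMIs of both programs. Above the medians of the others in both shares (0.451% muscle, 0.343% progenitor) lay 285 of 481 members (59.3%, 54.7 to 63.7%) and 7 of 37 others (18.9%, 7.96 to 35.2%). All 201 TVC-like members of 10 hpf were among them, as were 26 of 30 and 42 of 65 H2bc11 cluster members of 9 and 10 hpf, but only 1 of 122 larger ATM-like members. The muscle median of the others is low, and 480 members exceeded it, so the progenitor share decided this count. Members above both medians had a median of 12391 UMIs, a median pair share of 99.7% and 7 of the 15 called doublets, and the other members had a median of 21049 UMIs.

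Gate gene levels in the member clusters are given as a description, since the members were selected on these genes. Among the gate genes, Acer2 (KY.Chr2.452) differed most between the clusters. At 10 hpf it was held at 0 to 54 UMIs per cell with a median of 20 in the larger ATM-like cluster, and at 0 to 32 with a median of 0 in the TVC-like cluster. A UMI of it was present in 97.5% of larger ATM-like and 49.8% of TVC-like members. Its level was 879 CPM (844 to 915) in the larger ATM-like cluster, 718 (639 to 804) and 676 (624 to 732) in the H2bc11 cluster at 9 and 10 hpf, 575 (517 to 637) in the smaller ATM-like cluster, and 159 (143 to 175) in the TVC-like cluster. Intervals overlapped between both H2bc11 values and between the 10 hpf one and the smaller ATM-like cluster. TVC-like over larger ATM-like members gave a ratio of 0.181 (0.162 to 0.201), and the H2bc11 cluster at 10 hpf over TVC-like members gave 4.26 (3.75 to 4.85).

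Aldh1a1 (KY.Chr4.295) was present in every member of these clusters, which were selected on it, and varied less. Its medians per cell at 10 hpf were 40 UMIs (2 to 73) in the larger ATM-like cluster, 34 (7 to 102) in the H2bc11 cluster and 25 (5 to 63) in the TVC-like cluster. In CPM the order differed, with the larger ATM-like cells being the deeper ones. The levels were 3487 CPM (3310 to 3671) and 2518 (2415 to 2624) in the H2bc11 cluster at 9 and 10 hpf, 2231 (2116 to 2350) in the smaller ATM-like, 2111 (2054 to 2169) in the TVC-like and 1724 (1675 to 1774) in the larger ATM-like cluster. Only the smaller ATM-like and TVC-like intervals overlapped. Sapcd2 (KY.Chr9.328) was highest in the H2bc11 cluster at 10 hpf, at 663 CPM (611 to 718), followed by the TVC-like cluster at 567 (537 to 597). The smaller ATM-like cluster (382, 335 to 433), the H2bc11 cluster at 9 hpf (370, 314 to 433) and the larger ATM-like cluster (311, 290 to 332) were lower, and only the first and last of these 3 did not overlap.

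**Figure D4:**
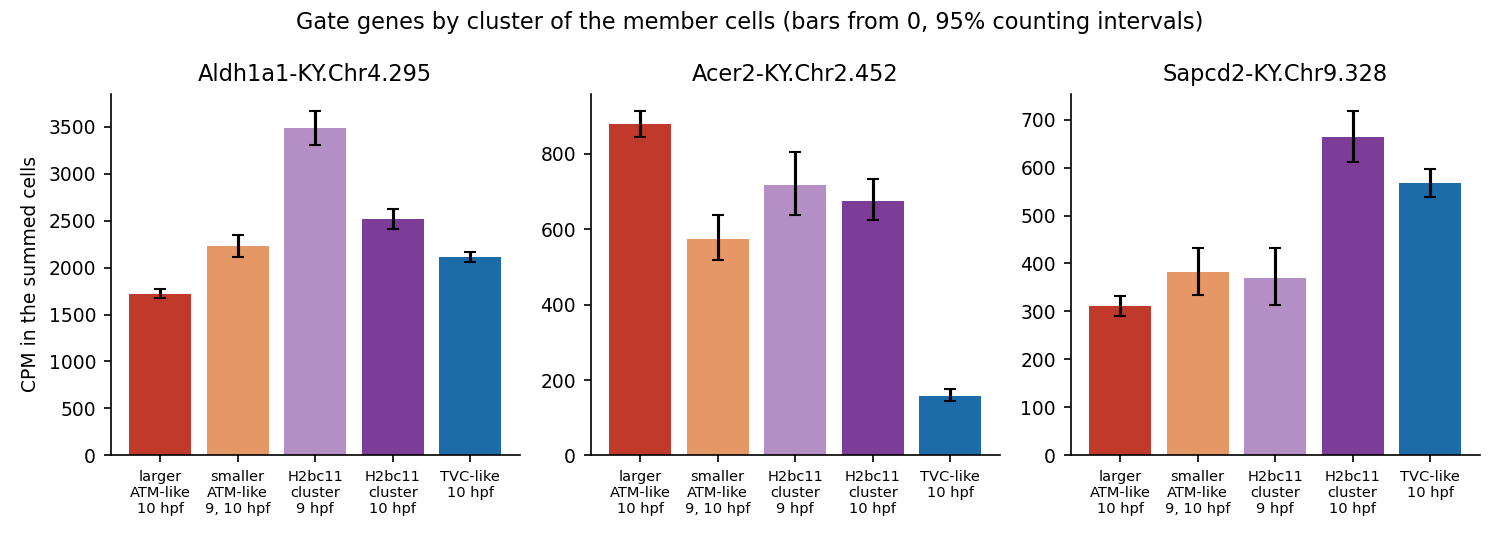
CPM of Aldh1a1, Acer2 and Sapcd2 (linear axes from 0) in the summed members of 4 clusters, with the H2bc11 cluster split by time point; bars are CPM and error bars 95% exact Poisson intervals. Acer2 stands at 159 CPM in the TVC-like cluster and between 575 and 879 CPM elsewhere, while Aldh1a1 stays between 1724 and 3487 CPM.

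The correlations of the gate genes are likewise a description of cells selected on these genes. Across the 10 hpf members, Acer2 CPM went with the muscle share (Spearman's rho 0.608) and against the progenitor share (-0.607). For Aldh1a1 the values were -0.133 and 0.122, and for Sapcd2 -0.263 and 0.287. Over the 56 members of 9 hpf, Acer2 had values of 0.520 and -0.402 and Aldh1a1 of -0.328 and 0.303, while Sapcd2 had the opposite signs (0.230 and -0.151). At 10 hpf Acer2 also went with depth (0.338), and Aldh1a1 and Sapcd2 went against it (-0.249 and -0.295).

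The genes that set TVC-like and larger ATM-like members apart at 10 hpf are given as a description, since the same genes built the clusters. Of 6345 genes, 3945 were higher in TVC-like members (62.2%) and 378 lower (5.96%), with a median log2 ratio of 1.26, so that most non-muscle genes took a larger share of UMIs there. Of 27 progenitor genes, 25 were higher (median 5.83, with 3 genes at a lower bound), and of 61 muscle genes 46 were lower (-1.41). Hand2 (KY.Chr1.2070) was held at 4 to 69 UMIs per cell with a median of 26 in TVC-like members, and at 0 to 16 with a median of 0 in larger ATM-like members. Foxf1 (KY.Chr3.1005) was at 643 CPM against 0.730 CPM from 2 UMIs (ratio 880, 243 to 7273). The growth factor gene Fgf4 (KY.Chr1.1891) was at 404 and 1.46 CPM.

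Single muscle genes differed widely in this ratio. Myf5 (KY.Chr14.1058) was at 3.23 CPM in TVC-like and 326 CPM in larger ATM-like members, with a UMI in 3.98% and 99.2% of the cells. Meox2 (KY.Chr8.1018), a homeobox factor of muscle, was at 171 and 5911 CPM (0.0290, 0.0263 to 0.0319), and the ryanodine receptor Ryr3 (KY.Chr11.485), which releases stored calcium, at 62.6 and 783 CPM. At the other end, Casq2 (KY.Chr4.1004) was at 8738 and 11183 CPM (0.781, 0.768 to 0.795), and every TVC-like member held at least 38 UMIs of it. Chrna1 (KY.Chr7.710) was at 888 and 723 CPM (1.2, 1.16 to 1.31), and the calcium store channel gene Tmem38b (KY.Chr2.399) at 2366 and 1799 CPM (1.32, 1.27 to 1.37). Troponin I, Tnni1 (KY.Chr11.476), was at 1516 and 2255 CPM (0.672, 0.646 to 0.700).

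In the cell cycle list, 20 of 25 genes were higher in TVC-like members and 2 lower (median 2.90), beside 62.2% of all genes higher and an all-gene median of 1.26. Cyclin E, Ccne1 (KY.Chr13.218), which drives entry into S phase, was at 705 CPM in TVC-like and 50.8 CPM in larger ATM-like members. The cell cycle inhibitor gene Cdkn1b (KY.Chr2.18) was at 29.1 and 320 CPM (0.0910, 0.0706 to 0.116).

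The H2bc11 cluster held an intermediate level of both programs. Against larger ATM-like members of 10 hpf, 1843 of 4729 genes were higher (39.0%) and 289 lower (6.11%), with a median of 0.84. Of its progenitor genes, 12 of 16 were higher and 0 lower, and of its muscle genes 1 of 61 was higher and 21 lower. Against TVC-like members, 139 of 5977 genes were higher (2.33%) and 671 lower (11.2%), with a median of -0.34. There, 24 of 27 progenitor genes were lower, and 20 of 60 muscle genes were higher and 0 lower. Hand2 (KY.Chr1.2070) had a median of 10 UMIs per cell (0 to 45) in this cluster at 10 hpf, at 832 CPM. Smyd1 (KY.Chr6.594), a myosin chaperone and methyltransferase, had a median of 27 UMIs (0 to 99), at 2377 CPM against 350 CPM in TVC-like and 4462 CPM in larger ATM-like members.

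A gene of retinoic acid breakdown stood apart in the H2bc11 cluster. Cyp26c1 (KY.Chr8.292) was at 475 CPM (431 to 523) there at 10 hpf, with 0 to 54 UMIs per cell and a UMI in 64.6% of cells. It was at 38.6 CPM (22.1 to 62.7) in the same cluster at 9 hpf, at 137 CPM in TVC-like and at 118 CPM in larger ATM-like members of 10 hpf. The others held it at 191 CPM, with 24.3% of cells.

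From 9 to 10 hpf, progenitor genes were higher in the members as a whole. Of 7260 genes, 515 were higher at 10 hpf (7.09%) and 154 lower (2.12%), with a median log2 ratio of 0.01. Of 27 progenitor genes, 20 were higher and 0 lower (median 1.2), and of 62 muscle genes 2 were higher and 0 lower (0.17). Nkx2-5 (KY.Chr8.909), the Nkx4 match, was at 31.9 CPM at 9 hpf and 206 CPM at 10 hpf (6.46, 4.53 to 9.55). The founder gene Rgs21 (KY.Chr4.237), which belongs to the regulators of G protein signalling, was lower, at 461 and 138 CPM (0.299, 0.267 to 0.335). Markers of other tissues were higher in 7 of 8 cases (1.82), and their part in the difference was not tested.

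The make-up of the members differed between the time points, since the TVC-like cluster held 201 members at 10 hpf and 1 at 9 hpf. Within the H2bc11 cluster (65 cells at 10 hpf and 30 at 9 hpf), 92 of 3394 genes were higher at 10 hpf (2.71%) and 68 lower (2.0%), with a median of -0.08. There, 1 of 18 progenitor genes was higher and 6 were lower (-0.42). The surface, signalling and matrix list had 0 of 10 genes higher and 5 lower (-0.99). The progenitor regulators had 1 of 8 higher and 1 lower (0.18). The 1 lower regulator, Foxf1 (KY.Chr3.1005), had a median of 6 UMIs per cell (0 to 15) at 9 hpf and 1 (0 to 14) at 10 hpf. It was at 393 and 160 CPM (0.407, 0.323 to 0.512). Rgs21 (KY.Chr4.237) was at 827 and 234 CPM. Of 57 muscle genes, 6 were higher and 0 lower (0.34), among them the troponin C gene Tnnc1 (KY.Chr8.329) at 1551 and 4840 CPM (3.12, 2.87 to 3.39). The median of both progenitor lists together thus had opposite signs over all members and within this cluster. Within the cluster, the negative sign came from the surface, signalling and matrix list and not from the regulators. This comparison does not hold the make-up fixed. The cluster held 30 of 56 members at 9 hpf, when the TVC-like cluster held 1, and 65 of 425 at 10 hpf. Of these, 26 of 30 and 42 of 65 lay above both medians of the others. The part of the clustering in the difference was not tested.

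Gate gene levels of 9 and 10 hpf members are also only a description, since both were selected on these genes. Aldh1a1 (KY.Chr4.295) was at 2876 and 1948 CPM (10 over 9 hpf 0.677, 0.650 to 0.706), and within the H2bc11 cluster the ratio was 0.722 (0.676 to 0.772). Acer2 (KY.Chr2.452) had a ratio of 0.799 (0.735 to 0.870) over all members, and of 0.942 (0.819 to 1.09) within the cluster. Sapcd2 (KY.Chr9.328) was higher at 10 hpf, with ratios of 1.2 (1.1 to 1.3) and 1.8 (1.5 to 2.2).

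The same gate was then applied to cells that the rule had not used. It held 222 of 245 cells at 7 hpf (90.6%, 86.2 to 94.0%) and 133 of 146 at 8 hpf (91.1%, 85.3 to 95.2%), so that cells of 7 to 10 hpf passed at like shares. At 11 hpf 126 of 164 cells passed (76.8%, 69.6 to 83.1%), at 12 hpf 27 of 126 (21.4%, 14.6 to 29.6%) and at 13 hpf 12 of 96 (12.5%, 6.6 to 20.8%). At 14 hpf 0 of 13 cells passed, which allows a share of up to 24.7%. The barcode pair of 14 hpf correlated at only 0.323 across cells, so that this assignment is less certain. After thinning to 5000 UMIs, 91.3% of 10 hpf cells passed, against 32.7% of 11 hpf and 9.60% of 12 hpf cells, so that the 11 hpf share depended on depth.

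The gate genes had different time courses over all cells of a time point. Aldh1a1 stood at 1768 CPM when 6 hpf cells were summed and at 2830 CPM (2726 to 2937) in those of 9 hpf. The 10 hpf cells held 1842 CPM (1811 to 1873) of it, and the 11 hpf cells 550 CPM (521 to 580). Acer2 went from 3.84 CPM, or 3 UMIs, in 6 hpf cells to 121 CPM in 7 hpf and 283 CPM in 8 hpf cells. It reached 656 CPM (606 to 708) by 9 hpf and 503 CPM (487 to 520) by 10 hpf, and 11 hpf cells held 173 CPM. Sapcd2 was between 338 and 490 CPM from 6 to 10 hpf and at 215 CPM at 11 hpf. Acer2 was highest at 9 and 10 hpf, but gene and time points were chosen with earlier results of these data known. This is therefore a description only. The make-up of the cells also differed between time points. At 11 hpf, 118 of 164 cells lay in 1 TVC-like cluster, where Acer2 was at 20.6 CPM. The part of this make-up in the time courses was not tested.

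**Figure D5:**
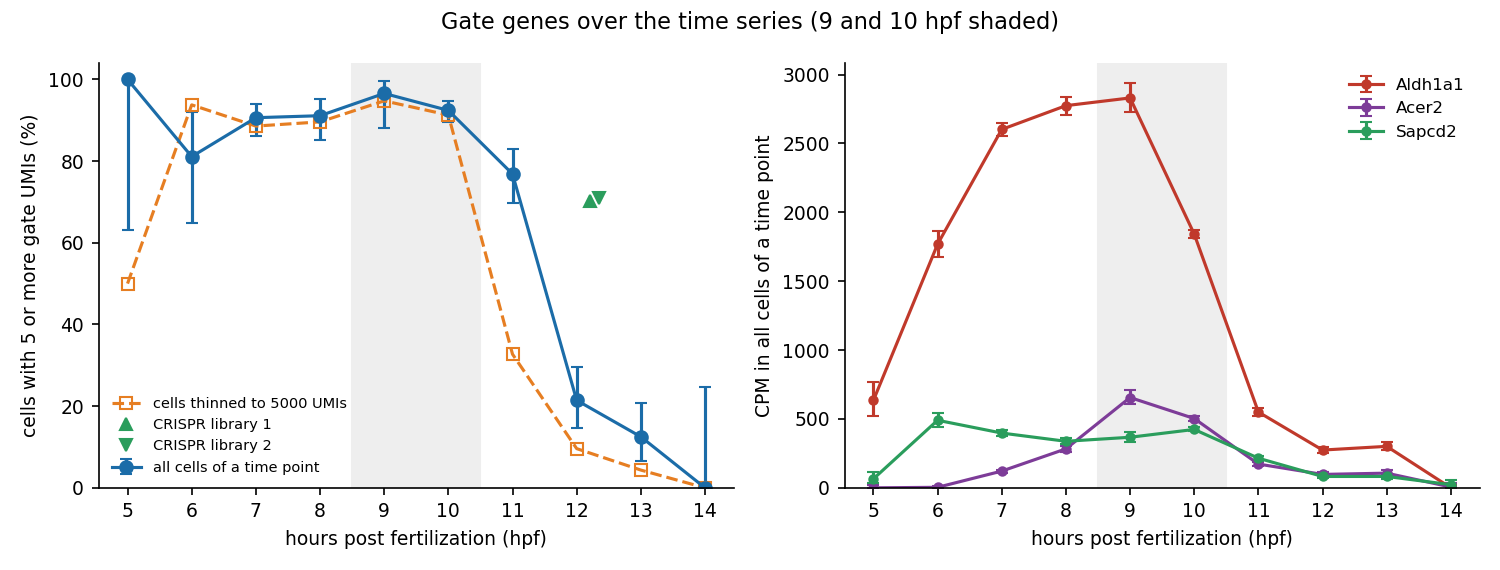
Left, share of cells with 5 or more gate UMIs (%) at each time point (blue, 95% Clopper-Pearson intervals), after thinning to 5000 UMIs (orange), and in the CRISPR libraries of 12 hpf (green). Right, CPM of the gate genes over all cells of a time point, with exact Poisson intervals. The share is 92.4% at 10 hpf and 21.4% at 12 hpf, and Acer2 has its highest value, 656 CPM, at 9 hpf.

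After 10 hpf, the muscle UMIs of cells that still passed the gate depended on the cluster. At 12 hpf the muscle genes summed to 417370 CPM in the 27 cells inside the gate and 58604 CPM in the 99 outside. In the TVC-like cluster of 11 hpf, 85 of 118 cells passed (72.0%, and 19.7% after thinning), with 97692 CPM of muscle UMIs inside the gate and 76679 CPM outside. The 12 hpf cells of the same cluster passed in 8 of 30 cases (26.7%), with 73528 and 63306 CPM. In a second TVC-like cluster 5 of 78 cells of 12 hpf passed (6.41%), with 64882 and 58743 CPM. In these clusters the cells inside the gate thus stood near those outside. The CRISPR libraries, which pool embryos targeted at Foxf, Gata4/5/6 or Foxtun4 and controls at 12 hpf, had 162 of 231 cells inside the gate (70.1%, 63.8 to 76.0%) and 453 of 638 (71.0%, 67.3 to 74.5%). There the muscle sums were 303710 CPM inside and 46371 CPM outside in library 1, and 334485 and 29918 CPM in library 2. These libraries were not filtered on genes or split by condition here, and their share is not comparable with that of 12 hpf in the time series. No cell barcode of the time series recurs in them.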

How the data were processed

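The deposited values are raw UMI counts without normalization. For each cell they cover 17822 KY2019 gene models and 21 sample barcodes treated as extra genes, and the authors obtained them with Cell Ranger 3.0.1. Cells between the 1st and 99th percentile of genes per cell were kept (2517 of 2569). Time points were assigned where each barcode of a pair was detected and 75% or more of a cell's mapped barcode UMIs came from that pair. Members held 5 or more gate UMIs. Members, gene lists and clusters were chosen with earlier results of these data known. CPM leave out barcodes and gate genes, except for gate genes, which are relative to all gene UMIs. Intervals are exact Poisson (CPM), conditional binomial (ratios) and Clopper-Pearson (shares). Genes needed 50 UMIs over both sums, and 0 UMIs were replaced by a floor of 3, which gives a bound that was called only in its own direction. Clusters are Leiden clusters (scanpy 1.11.5, igraph 0.11.9, 2000 variable genes, 30 components, 15 neighbours, resolution 1). Clusters were named by class where 3 or more of its markers were present, and 3 times as many as for other classes. Presence meant detection in 20% of cells and CPM 2 times the mean elsewhere (pseudocount 10). Named genes are those of the lists and the 10 highest and 10 lowest ratios among genes with 100 UMIs on the same side of the median at both time points. No doublet filter was applied beside the barcodes. Comparisons of member clusters and of 10 with 9 hpf members were added after seeing the data. The computations were tested on simulated counts.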

Additional observations from a re-analysis of the deposited data

Results flagged for a closer look

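Cells that could not be assigned to a time point were not used in the comparisons of members with others, and some of them passed the gate. In well barcoded clusters, 32 of 83 such cells held 5 or more gate UMIs (38.6%, 28.1 to 49.9%, and 36.5% after thinning to 5000 UMIs). Their muscle genes summed to 474638 CPM inside the gate and 470060 CPM outside it. In sparsely barcoded clusters, 67 of 1081 such cells passed (6.20%, 4.84 to 7.80%, and 1.87% after thinning), with Aldh1a1 at 9.97 CPM, Acer2 at 46.3 CPM and Sapcd2 at 44.6 CPM over all of them. Both shares are a description and were not compared with an expected value. The time point of these cells is not known.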

How the results depend on the processing

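Of 282 values of 29 summary results under the alternatives, 239 kept their direction and moved little, 41 moved and 2 reversed. Of 1705 values of 174 single genes, 1645 changed less than 2-fold in their ratio, 60 changed more and 0 reversed. Only genes called over all cells could count as reversed. Settings with fewer than 20 others are left out of this count and are given at the end of the paragraph. With a gate of 3 UMIs, the 11 and 12 hpf shares were 87.2 and 36.5%, the muscle median 2.29 and the median of all genes -0.28. With a gate of 10 they were 48.2 and 12.7%, the share in CRISPR library 2 was 66.6%, and the medians were 1.12 and -0.10. A gate of 3 per 10000 UMIs gave medians of 1.2 and -0.11. A pair share of 90% gave -0.13 for all genes, the mean over cells -0.090, and 10 hpf alone -0.14. With 10 UMIs in the pair, the 10 hpf share was 97.9%, the 8 hpf share 98.5%, the others' depth 5393 UMIs, the members above both medians 79.3%, genes lower 2231, the muscle median 1.01 and all genes -0.88. All cell barcodes gave a log2 ratio of -0.50 for Aldh1a1 (10 over 9 hpf). Depth-matched cells (241 members, 7 others) gave a muscle median of 2.5 and reversed that of all genes to 0.013. At 9 hpf alone (2 others), 201 genes were higher and 847 lower. The medians there, 3.31 for muscle, 0.056 for progenitor and -0.83 for all genes, include 27 of 55, 11 of 14 and 491 of 2557 genes at a bound and give no direction. A minimum of 20 UMIs gave 330 genes lower at 10 than at 9 hpf and -0.26 for all genes. A minimum of 200 gave 210 higher and 30 lower there, and 464 higher and 602 lower in members than in others, with -0.13. Resolution 0.5 gave an ATM-like share of 33.1%. Within clusters at least 50% barcoded, chosen after seeing the data, the muscle median reversed to -0.12, all genes gave -0.24, the 10 and 8 hpf shares were 97.8 and 98.5%, the others' depth 6329 UMIs and the members above both medians 73.2%. Removing Scrublet doublets and resolution 2 moved none of these summary results. Single genes were not counted above where there were fewer than 20 others. In those settings, called genes that changed sign numbered 11 of 127 (10 UMIs in the pair), 1 of 122 (depth-matched), 5 of 83 (9 hpf alone) and 33 of 117 (clusters at least 50% barcoded), and a bound left 10, 5, 14 and 8 undetermined. The cause of these changes was not tested beyond the smaller number of others. No paired analysis was possible because the time series has 1 library and no comparison between groups of samples was tested. Depth limits the others most, with 413848 UMIs over 37 cells against 7828352 over the members.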

Other observations

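Outside the 4 clusters described, 32 members remained, 7 of 9 hpf and 25 of 10 hpf. They held 5 to 159 gate UMIs with a median of 34.5, a muscle share of 0.220 to 60.7% with a median of 23.2%, and a progenitor share of 0.0190 to 2.75% with a median of 0.334%. Their median depth was 17534 UMIs, and 10 of them were called doublets by Scrublet. Epi1 (KY.Chr1.2380) was at 2218 CPM and Matn4 (KY.Chr14.958), a matrix protein, at 908 CPM in their sum, between the members of the H2bc11 cluster at 10 hpf (31.3 and 11.2 CPM) and the others (5886 and 3310 CPM).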
